A study of Mus musculus with 9 samples.

Results

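The genes described here are the mouse Rab, Vps, Snx, Arf and Arl genes, whose products carry and sort membrane vesicles inside the cell. They were chosen by name from the deposited count table of mouse hippocampus: every gene symbol that begins with Rab, Vps, Snx, Arf or Arl and then a digit, with a mean of at least 10 counts over the libraries labelled sham and CLP. Of 172 such symbols 86 passed, among 38898 genes in the table, and none was dropped as a pseudogene name. The 86 members are 39 Rab, 18 Vps, 10 Snx, 5 Arf and 14 Arl genes. Not all are what their first letters say: 46 encode the small GTPases themselves, 5 Rab-named and 5 Arl-named members encode partner proteins, and Rab10os and Rab26os are noncoding antisense genes. Just inside the limit lay Rab11fip1 with a mean of 10.67 counts and Snx32 with 12.5, and just outside it Vps33a with 9.5 and Rab23 with 7.83.

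Rab, Arf and Arl proteins are small GTPases that switch between a soluble GDP-bound state and a membrane-bound GTP-bound state, in which they recruit coats, motors and tethers to one kind of membrane. Vps proteins, named from yeast mutants that missort vacuolar enzymes, form the complexes that these switches work with: retromer, which returns receptors from endosomes, the HOPS, CORVET and GARP tethers, the ESCRT machinery, and the Vps13 lipid channels. Sorting nexins (Snx) bind phosphoinositides on endosomes through a PX domain and bend membranes or select cargo. In neurons these pathways move synaptic vesicles, glutamate receptors and lysosomes, and in glia they serve phagocytosis and cytokine release.

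The study sequenced rRNA-depleted total RNA of hippocampus from adult BALB/c mice, 3 biological replicates in each of 3 groups. The CTL group had a sham operation. The SAE group (sepsis-associated encephalopathy) had cecal ligation and puncture (CLP), a surgery that leaks gut contents into the abdomen, and no extract. The CCLF group had the same surgery and received Cuscuta chinensis flavonoids at 200 mg/kg. The tissue is whole hippocampus, so in every result below fewer cells of a type and less RNA per cell cannot be told apart. Library totals were close together, from 4626519 to 4895474 counts.

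The group labels go against the inflammatory genes of the same libraries. Lcn2, an acute-phase gene that brain cells switch on in systemic inflammation, had 13816, 14822 and 13246 counts in the libraries labelled sham and 13, 14 and 6 in those labelled CLP. The chemokine gene Cxcl10 had 3932, 6980 and 1396 counts against 9, 10 and 3. All 14 tested genes of a 15-gene inflammation list were called lower in the libraries labelled CLP. Groups are therefore written "labelled sham" (CTL), "labelled CLP" (SAE) and "labelled CLP plus extract" (CCLF) throughout, and every direction below is that of the labels.

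The libraries labelled CLP plus extract stand apart in a second way. Among 25 members with a mean of at least 50 scaled counts in each group and no call between labelled CLP and labelled sham, the variance over the 3 replicates divided by their mean had a median of 1.15 in the libraries labelled sham, 1.36 in those labelled CLP and 0.173 in those labelled CLP plus extract. Counting of independent reads alone gives a median of 0.693. A value under 0.1 was found for 48.0% of these members in the extract group, where counting alone gives 9.52%. Over 1894 such genes of the whole table the medians were 1.23, 1.48 and 0.119. All 3 extract values lay within the span of the 6 other libraries for 82 of the 86 members (95.3%), and for 96.3% of all tested genes. Rab4b, Rab15, Rab24 and Vps37c were the exceptions. The members compared below between labelled CLP and labelled sham were fitted on those 6 libraries alone. The reason was a larger estimated spread when the extract libraries share the fit. The common dispersion, edgeR's estimate of that spread over all genes, was 0.00443 with 6 libraries and 0.00711 with all 9.

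**Figure D1:**
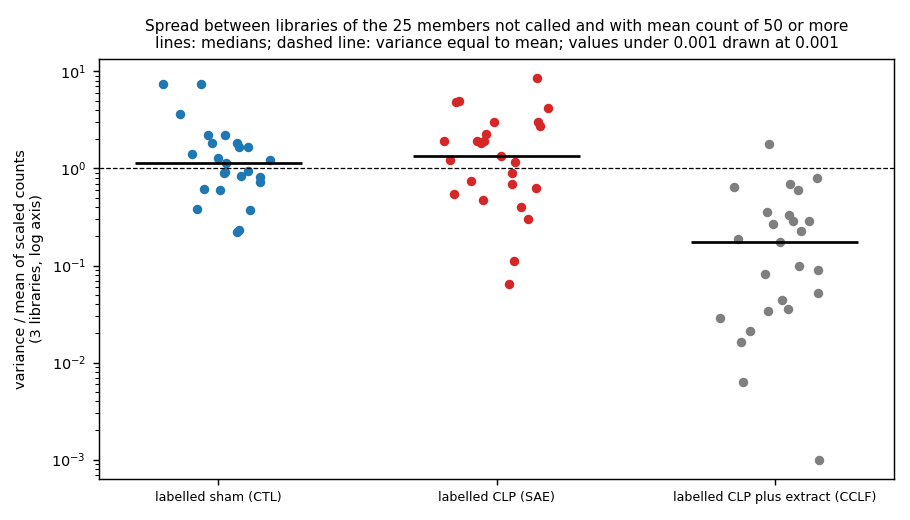
Variance over mean of the 3 replicate counts in each group (log axis), for the 25 uncalled members with at least 50 counts, 1 point per gene, with the dashed line at variance equal to mean. The points of the 3 groups overlap, and those of the libraries labelled CLP plus extract reach lowest (values under 0.001 are drawn there), with a median of 0.173 against 1.15 and 1.36.

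How many transcripts RefSeq lists for a gene went with whether it could be measured at all. Of 53 candidate symbols with a single RefSeq transcript in the table, 48 passed the count limit (90.6%) and their median mean count was 886.5. Of 119 symbols with several transcripts, 38 passed (31.9%), with a median of 3.833. The share was 39.5% with 2 transcripts, 29.7% with 3 or 4, and 25.6% with 5 or more. Over all coding genes the shares were 43.9% with a single transcript and 22.6% with several. The reason was not tested.

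The genes lost in this way include some of the best known of the family. Rab3a, the synaptic-vesicle Rab, has 5 transcripts in the table and 0 counts in all 9 libraries, and Rab5b, Rab6a, Rab27b and Vps26a also had 0. Rab7, the late-endosome Rab, had at most 3 counts in any library, and Rab27a and Rab20 at most 1 and 2. Rab3c, Rab3d, Rab5c, Snx5 and Snx27 had between 0 and 12. In all, 25 of the 86 symbols below the limit had 0 counts throughout. These values say nothing of whether hippocampus expresses the genes, and low members with several transcripts, such as Arf1 (2.99 to 5.27 CPM over the libraries labelled sham and CLP), carry the same limit. CPM, edgeR's count scaled for library size, is not divided by transcript length, so levels are compared between groups and not between genes.

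**Figure D2:**
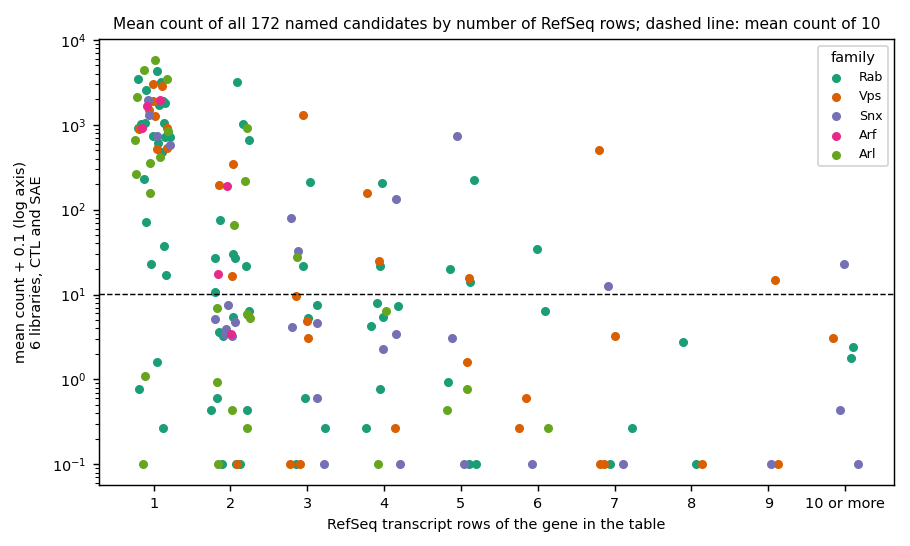
Mean count plus 0.1 per gene over the 6 libraries labelled sham and CLP (log axis) against the number of RefSeq transcripts listed for the gene, 1 point for each of the 172 candidate symbols. Genes with a single transcript pass the limit of 10 counts in 90.6% of cases and genes with 5 or more in 25.6%.

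The question put to the members was whether the vesicle traffic genes differ between hippocampus labelled CLP and hippocampus labelled sham. All 86 could be tested by the quasi-likelihood F test of edgeR, with p-values adjusted (Benjamini-Hochberg) over all 8213 tested genes. Of them 44 passed an adjusted p of 0.05 (51.2%), 19 upward and 25 downward in CLP-labelled libraries. The share called over all tested genes was 47.6%, with 23.7% higher and 23.9% lower, so the family as a whole is near the background. CPM values of the groups did not overlap for 51 members (59.3%), against 55.7% of all tested genes. Changes were small: 6 of 86 were called and over 2-fold, against 16.5% of all tested genes, and the median size of the log2 fold was 0.24 against 0.37. With a mean of at least 200 counts, 33 of 55 members and 1732 of 2803 genes were called, and the median sizes were 0.18 and 0.23.

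By family, 5 of 39 Rab genes were higher and 11 lower, 8 of 18 Vps genes higher and 4 lower, 2 of 10 Snx genes higher and 4 lower, 0 of 5 Arf genes higher and 1 lower, and 4 of 14 Arl genes higher and 5 lower. The median log2 folds were 0.02 for Rab, 0.24 for Vps, -0.07 for Snx, -0.09 for Arf and 0.06 for Arl, and 0.00 over all tested genes. Family counts this small move with single libraries. The 11 lower Rab genes were 6 without sham replicate 2 and 7 without CLP replicate 1 or CLP replicate 2, the 4 lower Vps genes were 2 without CLP replicate 1, the 4 lower Snx genes were 2 without sham replicate 2 or CLP replicate 2, and the 5 lower Arl genes were 3 without sham replicate 1. A core of 30 members, 17 higher and 13 lower, was called with each of the 6 libraries left out in turn and in every other alternative that tested it, apart from the fit of single-transcript genes. Of the other 14 called members, the DESeq2 Wald test did not call Rab3b, Rab5a, Rab11fip2, Rab30, Rab40b, Rab43, Snx9 and Snx24, and the fit without a filter on low counts did not call Rab3b, Rab5a, Rab11fip2, Rab30 and Rab40b.

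**Figure D3:**
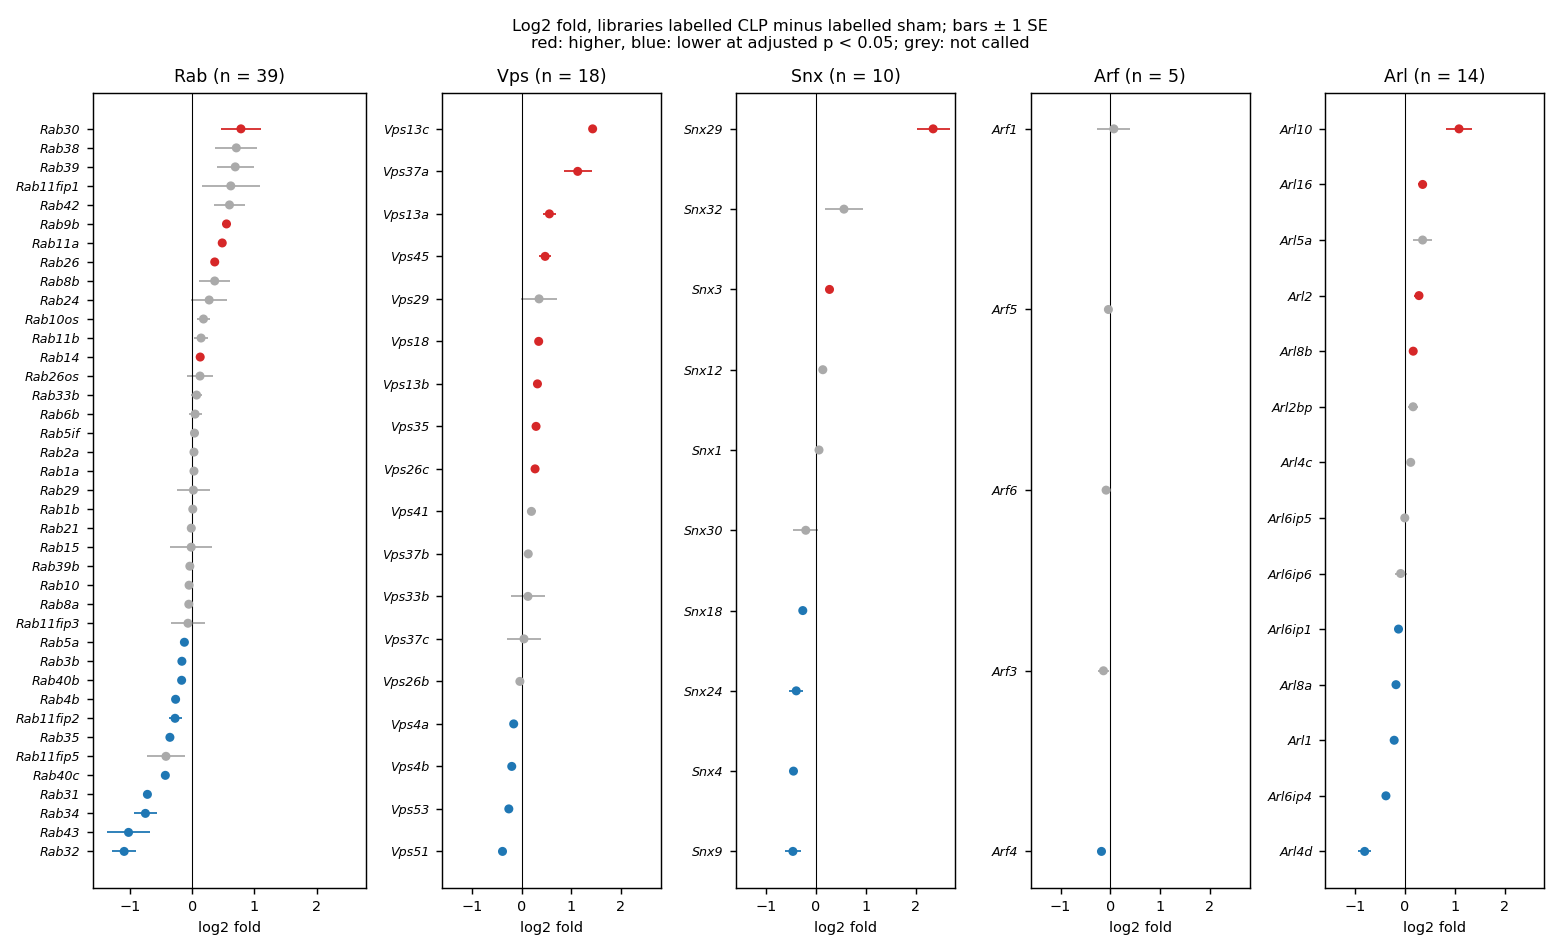
Log2 fold, labelled CLP minus labelled sham, of the 86 members by family, with bars of 1 approximate standard error. Called members (adjusted p under 0.05) are coloured by direction. Called points lie on both sides of 0 in each family except Arf, where 1 of 5 genes is called.

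Among the Rab genes, those of late and early endosomes held 4 of the 11 falls. Of 5 late-endosome and lysosome Rabs 2 fell and 1 rose, and of 4 early-endosome Rabs 2 fell and 0 rose. Over all tested genes 23.9% fell and 23.7% rose, and groups this small cannot show whether falls gather in endosomal Rabs. The call of Rab5a, among these falls, was lost in several alternatives. Rab32, a Rab of lysosome-related organelles and mitochondria, had 18.5, 19.1 and 23.4 CPM in the libraries labelled sham and 8.22, 12.6 and 8.02 CPM in those labelled CLP (log2 fold -1.09 ± 0.19, adjusted p = 4.14e-05). All 3 libraries labelled CLP lay below all 3 labelled sham, a 2.13-fold lower level. Rab31, which works between the trans-Golgi network and early endosomes, had 459, 442 and 453 CPM in the libraries labelled sham and 283, 273 and 273 CPM in those labelled CLP (log2 fold -0.72 ± 0.047, adjusted p = 4.73e-12). The groups lay far apart for their spread, and this 1.65-fold lower level has the smallest adjusted p of the 25 members that fell. Rab34, known from lysosome positioning, phagosomes and the primary cilium, had 19.99, 21.2 and 18.2 CPM in the libraries labelled sham and 11.8, 14.9 and 8.85 CPM in those labelled CLP (log2 fold -0.75 ± 0.18, adjusted p = 0.00136), again with no overlap.

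Rab9b, a Rab of transport from late endosomes to the trans-Golgi network, moved the other way. It had 121, 120.4 and 126 CPM in the libraries labelled sham and 162, 190.1 and 190.1 CPM in those labelled CLP (log2 fold 0.55 ± 0.068, adjusted p = 3.43e-07), with CLP replicate 1 the lowest of its group and still above every library labelled sham. Rab38, a close relative of Rab32, and Rab29, a Rab of the Golgi and stressed lysosomes, were not called (log2 folds 0.71 and 0.02, adjusted p = 0.0881 and 0.961). The late-endosome and lysosome Rabs thus counted 1 higher, 2 lower and 2 not called.

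Recycling Rabs, which return internalised membrane to the surface, were divided. Rab11a, the Rab of the recycling endosome, had 309, 309 and 331 CPM in the libraries labelled sham and 433, 439.7 and 464 CPM in those labelled CLP (log2 fold 0.48 ± 0.049, adjusted p = 1.22e-08), and the lowest library labelled CLP was above the highest labelled sham. Rab14, which links the Golgi with endosomes, was 1.09-fold higher (log2 fold 0.13 ± 0.038, adjusted p = 0.00681). Rab35, a Rab of fast recycling at the plasma membrane, had 245, 248 and 233 CPM in the libraries labelled sham and 191, 199.7 and 181 CPM in those labelled CLP (log2 fold -0.36 ± 0.057, adjusted p = 1.22e-05). Rab4b, a Rab of early recycling, had 226, 238 and 234 CPM in the libraries labelled sham and 181, 192 and 212 CPM in those labelled CLP (log2 fold -0.27 ± 0.06, adjusted p = 7.21e-04). Both fell with no overlap between groups, while Rab11b and Rab15 were not called (log2 folds 0.14 and -0.02).

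The promoters of 4 Rab genes are printed to set the sequences of the largest falls beside those of the largest rises. They are the 2 lowest and 2 highest log2 folds among Rab genes with a single RefSeq transcript, a single promoter window and a call that held in each alternative. Each is the 250 bases before the annotated start in RefSeq assembly GRCm38.p6, on the minus strand, 5′ to 3′: Rab32 at chr10:10558208-10558457, Rab31 at chr17:65772753-65773002, Rab11a at chr9:64737757-64738006 and Rab9b at chrX:136868557-136868806. Capitals mark a CCAAT box, read as CCAAT or, on the other strand, ATTGG.
Rab32: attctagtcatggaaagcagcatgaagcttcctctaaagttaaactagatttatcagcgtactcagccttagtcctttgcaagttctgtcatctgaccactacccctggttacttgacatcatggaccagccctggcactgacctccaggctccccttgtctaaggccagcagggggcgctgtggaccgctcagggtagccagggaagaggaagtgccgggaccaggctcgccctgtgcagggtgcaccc
Rab31: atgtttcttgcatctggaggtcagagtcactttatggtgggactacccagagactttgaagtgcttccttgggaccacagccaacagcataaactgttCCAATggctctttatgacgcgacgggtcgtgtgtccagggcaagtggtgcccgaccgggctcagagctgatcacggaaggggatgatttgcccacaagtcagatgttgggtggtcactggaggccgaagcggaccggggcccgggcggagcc
Rab11a: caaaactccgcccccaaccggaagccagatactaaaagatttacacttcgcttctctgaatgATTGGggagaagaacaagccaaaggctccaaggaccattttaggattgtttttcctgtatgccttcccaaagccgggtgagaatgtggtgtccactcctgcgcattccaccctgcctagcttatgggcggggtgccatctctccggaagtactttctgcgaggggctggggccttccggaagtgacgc
Rab9b: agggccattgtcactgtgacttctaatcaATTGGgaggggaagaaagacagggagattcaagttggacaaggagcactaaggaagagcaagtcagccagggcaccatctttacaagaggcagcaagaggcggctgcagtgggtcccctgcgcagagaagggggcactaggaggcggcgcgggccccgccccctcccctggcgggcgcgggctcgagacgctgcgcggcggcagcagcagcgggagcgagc
The box appeared in both Rab genes that rose and in Rab31, which fell, and these letters are not in the Rab32 window. Among members with exactly 1 window it was found in 27 of 59 (45.8%), against 34.7% of 22862 genes. It was in 4 of 11 members that rose, 9 of 19 that fell and 14 of 29 not called. The palindromic E-box CACGTG was in 10.2% of members and 5.92% of genes, and the cyclic AMP response element TGACGTCA in 3.39% and 1.61%, with both strands searched. A match is a run of letters and not a measured site.

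**Figure D4:**
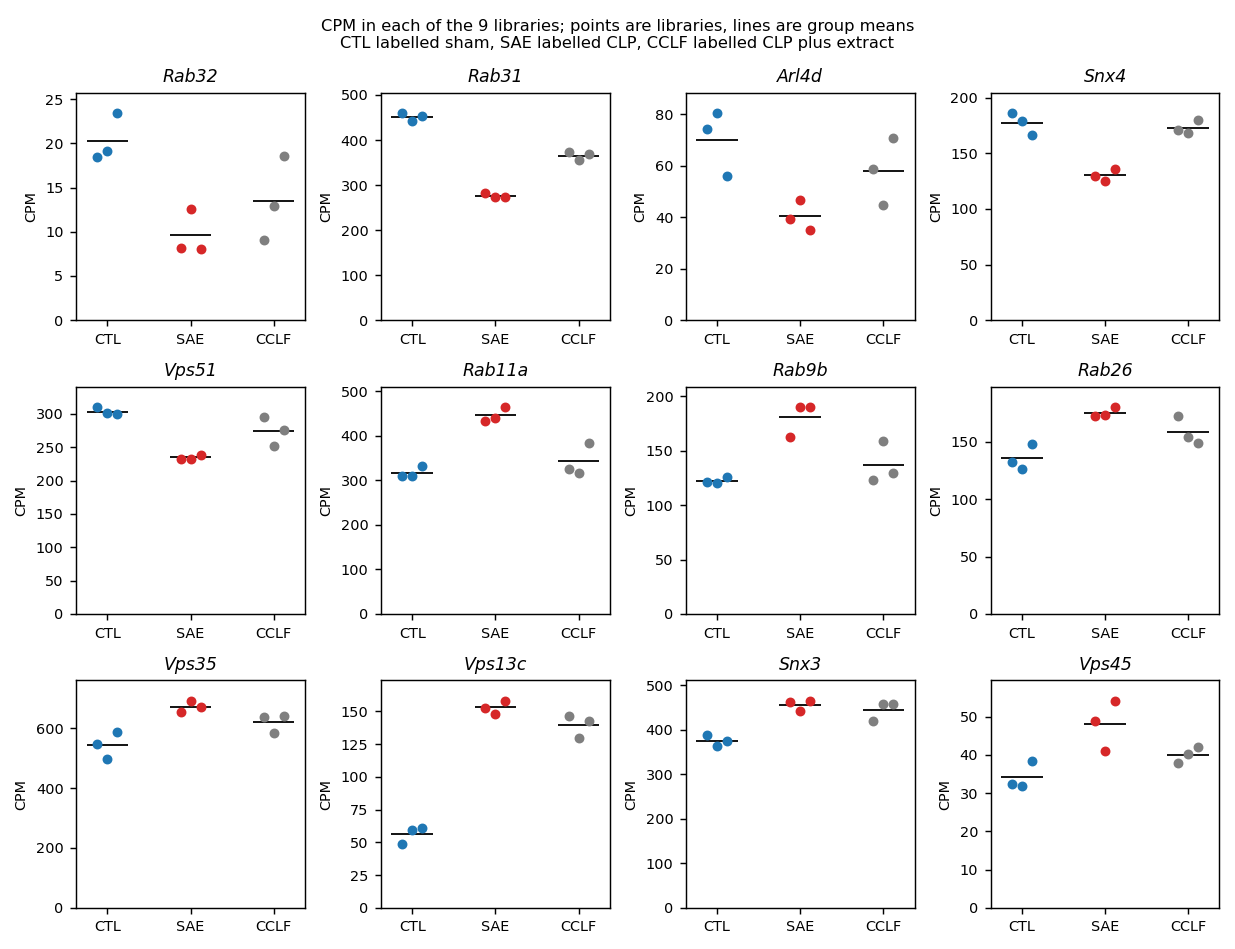
CPM in each of the 9 libraries for 12 members, points for libraries and lines for group means, with axes from 0. In the panels of Rab32, Rab31, Arl4d, Snx4 and Vps51 every library labelled CLP lies below every library labelled sham, and in the other 7 panels every one lies higher.

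Rabs of the synapse and exocytosis were thinly measured, because Rab3a, Rab27a and Rab27b fell below the count limit. Rab26, which sits on synaptic vesicles and has been tied to their autophagy, had 132, 126 and 148 CPM in the libraries labelled sham and 173, 174 and 180.2 CPM in those labelled CLP (log2 fold 0.36 ± 0.066, adjusted p = 6.90e-05), with no overlap. Rab3b, a Rab3 isoform of a subset of neurons, was called lower (log2 fold -0.17 ± 0.066, adjusted p = 0.0426), but CLP replicate 3 at 207 CPM lay inside the range labelled sham. Its call was lost without sham replicate 2 or 3 or CLP replicate 1 or 2, with adjusted p up to 0.264 over its alternatives. The antisense gene Rab26os was not called (log2 fold 0.13), and since the table does not state strand, its reads and those of Rab26 may not be told apart.

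Most Rabs of the early secretory pathway did not pass the test. Rab1a and Rab1b, which act between endoplasmic reticulum and Golgi, had log2 folds of 0.03 (approximate 95% interval -0.05 to 0.11) and 0.01 (-0.07 to 0.09). Rab2a, their partner in Golgi tethering, had 0.03 (-0.06 to 0.12), and Rab10, which carries cargo from the trans-Golgi network to the surface, -0.05 (-0.13 to 0.03). These intervals leave no room for a change of 1.5-fold. Of 9 ER and Golgi Rabs 7 were not called, where 4301 of 8213 tested genes were not. Rab8a, Rab8b and Rab10 of the route to the surface and cilium were not called either. The wider intervals of Rab39 (log2 fold 0.69, 0.11 to 1.28) and Rab8b (0.36, -0.13 to 0.86) do leave room for such a change.

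The 2 ER and Golgi Rabs that were called rest on few counts. Rab43 had 4.997, 8.72 and 4.56 CPM in the libraries labelled sham and 3.58, 3.84 and 1.65 CPM in those labelled CLP (log2 fold -1.02 ± 0.34, adjusted p = 0.0153) and Rab30 had 3.26, 3.11 and 2.69 CPM in the libraries labelled sham and 5.69, 6.61 and 3.497 CPM in those labelled CLP (log2 fold 0.78 ± 0.32, adjusted p = 0.0448). The Rab43 call was lost without sham replicate 2 or CLP replicate 3 (adjusted p up to 0.153), and that of Rab30 without any one of sham replicates 1, 2 or 3 or CLP replicates 1 or 2 (up to 0.193).

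Of the early-endosome Rabs, Rab31 aside, 1 was called. Rab5a, the Rab that recruits the PI3-kinase Vps34 to early endosomes, had 413, 428 and 422 CPM in the libraries labelled sham and 369.7, 395 and 402 CPM in those labelled CLP (log2 fold -0.13 ± 0.047, adjusted p = 0.0303), and its call was lost without sham replicate 1 or 2 or CLP replicate 1 or 2 (adjusted p up to 0.234). Rab21, also of early endosomes, had a log2 fold of -0.01, and Rab24, grouped with it, of 0.27, neither called. Rab40c and Rab40b, Rabs with a SOCS box that recruits a ubiquitin ligase, both fell: Rab40c had 257, 246 and 248 CPM in the libraries labelled sham and 188, 205 and 169 CPM in those labelled CLP (log2 fold -0.43 ± 0.062, adjusted p = 4.07e-06). Rab40b was 1.12-fold lower (log2 fold -0.17 ± 0.058, adjusted p = 0.0186), with the call lost without sham replicate 2 or CLP replicate 1 or 2 (adjusted p up to 0.0996). Of the 5 Rab partner proteins 1 was called: Rab11fip2, an adaptor between Rab11 and myosin V, was lower (log2 fold -0.28 ± 0.1, adjusted p = 0.0329), a call lost without any one of sham replicates 1 or 2 or CLP replicates 1, 2 or 3 (adjusted p up to 0.108).

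Of the 5 Arf genes 1 was called, where 47.6% of all tested genes were. Arf4, a Golgi Arf, had 429.9, 458 and 409 CPM in the libraries labelled sham and 372, 388 and 393 CPM in those labelled CLP (log2 fold -0.18 ± 0.049, adjusted p = 0.00362), a 1.13-fold lower level without overlap. Arf5, Arf3 and Arf1, which recruit COPI and clathrin adaptor coats at the Golgi, and Arf6, which acts at the plasma membrane, were not called, with log2 folds of -0.04, -0.14, 0.07 and -0.09. The sign of the Arf1 value turned without sham replicate 1 (-0.03) or CLP replicate 1 (-0.23). Arf6 had 190.1, 194 and 202 CPM in the libraries labelled sham and 186, 183 and 186 CPM in those labelled CLP, without overlap and still short of the threshold (adjusted p = 0.202).

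Among Arf-like genes, 4 of 9 coding GTPases rose and 3 fell, where 23.7% of all tested genes rose and 23.9% fell. Arl4d, which recruits Arf exchange factors to the plasma membrane, had 74.1, 80.3 and 56.1 CPM in the libraries labelled sham and 39.4, 46.7 and 34.97 CPM in those labelled CLP (log2 fold -0.81 ± 0.13, adjusted p = 1.11e-04), 1.75-fold lower. Arl10 had 3.48, 3.32 and 4.35 CPM in the libraries labelled sham and 7.59, 9.17 and 7.200 CPM in those labelled CLP (log2 fold 1.09 ± 0.26, adjusted p = 0.00128), 2.12-fold higher at a low level. Arl16 rose as well (log2 fold 0.35 ± 0.097, adjusted p = 0.00386). Arl2, a regulator of tubulin folding, was higher (log2 fold 0.28 ± 0.091, adjusted p = 0.0128), with the call lost without sham replicate 1 or CLP replicate 3 (adjusted p up to 0.117). Arl1, which brings golgins to the trans-Golgi, was called lower (log2 fold -0.22 ± 0.068, adjusted p = 0.0119), though sham replicate 3 at 183 CPM lay below CLP replicate 2 at 186 CPM. Its call was lost without sham replicate 1 or 2 or CLP replicate 1 (adjusted p up to 0.0999).

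Arl8a and Arl8b, the paralogs that couple lysosomes and synaptic-vesicle precursors to kinesins, moved in opposite directions. Arl8a had 778, 776 and 762 CPM in the libraries labelled sham and 690.4, 673 and 698 CPM in those labelled CLP (log2 fold -0.18 ± 0.039, adjusted p = 5.43e-04). Arl8b had 864, 899.8 and 846 CPM in the libraries labelled sham and 932, 993 and 1024 CPM in those labelled CLP (log2 fold 0.17 ± 0.042, adjusted p = 0.002003). Neither overlapped between groups, and Arl8a was 1.13-fold lower and Arl8b 1.12-fold higher. Of the 5 Arl partner proteins, Arl6ip4, a nuclear splicing-associated protein, was lower (log2 fold -0.38 ± 0.069, adjusted p = 6.28e-05). Arl6ip1, which shapes the endoplasmic reticulum, was lower with overlapping groups (log2 fold -0.13 ± 0.041, adjusted p = 0.0111), a call lost without sham replicate 1 or CLP replicate 3 (adjusted p up to 0.102).

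Of the Vps genes 12 of 18 were called (66.7%). The share was 47.6% over all tested genes and 61.8% over those with a mean of at least 200 counts. All 3 Vps13 genes above the count limit rose, where 23.7% of all tested genes did. They encode bridge-like proteins that pass lipids between organelles. Vps13c, which joins endoplasmic reticulum to late endosomes and lysosomes, had 48.4, 59.6 and 61.1 CPM in the libraries labelled sham and 153, 148 and 158 CPM in those labelled CLP (log2 fold 1.43 ± 0.082, adjusted p = 4.44e-13), a 2.69-fold higher level. Vps13a, the chorein gene, had 27.4, 26.8 and 25.1 CPM in the libraries labelled sham and 40.9, 33.7 and 43.00 CPM in those labelled CLP (log2 fold 0.56 ± 0.13, adjusted p = 6.77e-04), and Vps13b, a Golgi protein, had 269, 268 and 294 CPM in the libraries labelled sham and 339.9, 347 and 357 CPM in those labelled CLP (log2 fold 0.32 ± 0.051, adjusted p = 1.45e-05). For each of these 3 the lowest library labelled CLP was above the highest labelled sham. Vps13d was below the count limit and not among them, with 6, 2 and 7 counts labelled sham and 0, 2 and 1 labelled CLP. All but a few Vps13c counts fell on 1 predicted RefSeq transcript, with 220, 284 and 293 counts labelled sham and 725, 692 and 768 labelled CLP, so the rise is that of this transcript.

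Retromer and the related Commander complex carry receptors back from endosomes. Vps35, the retromer core, had 547, 498 and 588 CPM in the libraries labelled sham and 654, 691 and 671 CPM in those labelled CLP (log2 fold 0.29 ± 0.051, adjusted p = 6.14e-05), and Vps26c, the Vps26 subunit of Commander, had 103, 102 and 99.8 CPM in the libraries labelled sham and 133, 115 and 123 CPM in those labelled CLP (log2 fold 0.27 ± 0.072, adjusted p = 0.00288). Both were higher without overlap. Vps26b, a retromer Vps26 subunit, had a log2 fold of -0.03 (approximate 95% interval -0.11 to 0.05) and was not called. Vps26a was at 0 counts, and Vps29 had 9 to 17 counts in the libraries labelled sham, too few to show a change of this size. Its log2 fold of 0.35, not called, was -0.011 without CLP replicate 3.

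The tethers moved in different directions. GARP, which tethers endosome-derived vesicles at the trans-Golgi, has 2 measured subunits: Vps51 had 310.0, 301 and 299.5 CPM in the libraries labelled sham and 233, 233 and 239 CPM in those labelled CLP (log2 fold -0.38 ± 0.05, adjusted p = 9.78e-07) and Vps53 had 308, 297 and 296 CPM in the libraries labelled sham and 253, 244 and 264 CPM in those labelled CLP (log2 fold -0.26 ± 0.052, adjusted p = 2.34e-04). Both fell with no overlap. Vps18, a core subunit of the HOPS and CORVET tethers of late and early endosomes, had 176, 167 and 169 CPM in the libraries labelled sham and 228, 217 and 209.8 CPM in those labelled CLP (log2 fold 0.34 ± 0.057, adjusted p = 2.36e-05) and rose. Vps41, a HOPS subunit, was not called in all 6 libraries (log2 fold 0.20 ± 0.095, adjusted p = 0.0891) and was called higher without CLP replicate 1 (log2 fold 0.30, adjusted p = 0.0197). Vps45, the Sec1/Munc18-type partner of endosomal SNAREs, had 32.4, 31.96 and 38.5 CPM in the libraries labelled sham and 48.9, 40.96 and 54.1 CPM in those labelled CLP (log2 fold 0.47 ± 0.12, adjusted p = 0.00225) and rose.

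The ESCRT members were also divided. Vps4a and Vps4b, the ATPases that take ESCRT-III apart, were 1.12-fold and 1.15-fold lower (adjusted p = 0.00873 and 0.00957). Without CLP replicate 1 neither was called (adjusted p up to 0.103 and 0.0835), and without sham replicate 1 Vps4b was not. Vps37a, an ESCRT-I subunit, had 2.82, 2.698 and 4.14 CPM in the libraries labelled sham and 8.22, 6.83 and 6.38 CPM in those labelled CLP (log2 fold 1.13 ± 0.28, adjusted p = 0.00179) and rose at a low level, on counts that fell on a predicted noncoding transcript. Vps37b and Vps37c were not called.

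Of 6 measured SNX-BAR members, which bend membranes into tubules, 0 rose and 3 fell. Over all tested genes 23.7% rose and 23.9% fell, and a group of 6 cannot show whether falls gather in it. Snx4, which recycles transferrin receptor and autophagy proteins, had 186, 179 and 166 CPM in the libraries labelled sham and 129.7, 125 and 136 CPM in those labelled CLP (log2 fold -0.45 ± 0.064, adjusted p = 2.80e-06), without overlap and called in each alternative. Snx18 and Snx9, which act in endocytosis and autophagosome formation, were lower (log2 fold -0.27 ± 0.074, adjusted p = 0.00459; log2 fold -0.46 ± 0.16, adjusted p = 0.01795). The Snx18 call was lost without sham replicate 2, and that of Snx9 without sham replicate 2 or CLP replicate 1 or 2 (adjusted p up to 0.0569 and 0.0709). Snx1, the SNX-BAR partner of retromer, was not called (log2 fold 0.06, approximate 95% interval -0.04 to 0.16).

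Of 4 nexins grouped as PX-only 2 rose and 1 fell, beside 23.7% and 23.9% of all tested genes. Snx3, which works with retromer on the return of Wntless, had 388, 363 and 374 CPM in the libraries labelled sham and 462, 442 and 464 CPM in those labelled CLP (log2 fold 0.27 ± 0.046, adjusted p = 3.33e-05), with no overlap. Snx29 had the largest log2 fold of all members, 2.35 ± 0.33 (adjusted p = 2.28e-06), on few reads. Its main predicted transcript had 5, 8 and 5 counts in the libraries labelled sham and 24, 35 and 34 in those labelled CLP. Snx24 was lower (log2 fold -0.40 ± 0.14, adjusted p = 0.0236), a call lost without sham replicate 1 or CLP replicate 2 (adjusted p up to 0.215).

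Snx12, a brain-rich relative of Snx3, was not called for the gene as a whole (log2 fold 0.14 ± 0.062, adjusted p = 0.0729), yet its transcripts differed. The curated transcript had 392, 378 and 422 counts in the libraries labelled sham and 372, 385 and 384 in those labelled CLP. A predicted transcript had 286, 297 and 323 against 369, 388 and 421. Only the predicted one did not overlap between groups, and the log2 ratio of the predicted to the curated was -0.46, -0.35 and -0.39 labelled sham and -0.01, 0.01 and 0.13 labelled CLP. Salmon shares reads among similar transcripts, and no test was run on single transcripts, which were looked at after their values were seen.

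Of the 86 members 42 were not called. The 22 of them with a mean of at least 200 counts had log2 folds from -0.09 to 0.20, and the 20 with fewer counts from -0.42 to 0.71, where the same difference has a larger error. Among the first are Arl4c, which recruits Arf exchange factors as Arl4d does (log2 fold 0.12), and Rab39b and Rab33b, Rabs of the Golgi and of autophagy (-0.04 and 0.07). Among the second are Rab39 (0.69), Rab42 (0.60) and the SNX-BAR genes Snx30 and Snx32 (-0.21 and 0.56). A missed threshold does not show that the groups are alike for these genes.

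Ratios of 2 genes within a library need no scaling between libraries. They were computed for 11 pairs chosen after the values were seen, and are given as descriptions with no test. The groups did not overlap for 7 pairs and overlapped for 4. The share over gene pairs in general was not computed. Of single genes, 55.7% of all tested did not overlap between these groups. The log2 ratio of Arl8b to Arl8a counts was 0.15, 0.21 and 0.15 in the libraries labelled sham and 0.43, 0.56 and 0.55 in those labelled CLP. That of Vps26b to Vps35 was 0.22, 0.37 and 0.17 against -0.04, -0.13 and -0.05. Neither pair overlapped between groups. Rab32 to Rab38 had 2.71, 2.94 and 3.12 against 1.38, 1.07 and 0.96, with few Rab38 counts behind it. The ratios did not always follow the calls: Rab11a to Rab11b had 2.90, 2.74 and 3.11 against 3.35, 3.102 and 3.33, which overlap although Rab11a was called and Rab11b was not. Rab8a to Rab8b had 4.77, 4.75 and 4.604 against 4.46, 4.04 and 4.38, without overlap although neither gene was called. The pairs Rab40b to Rab40c, Snx18 to Snx9 and Vps51 to Vps53 did not overlap either, and Vps4a to Vps4b and Rab39b to Rab39 did. Rab1a to Rab1b had 0.29, 0.30 and 0.20 against 0.26, 0.26 and 0.33, which overlap. Close paralogs can exchange reads in the authors' counting, and how far this occurred was not tested.

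**Figure D5:**
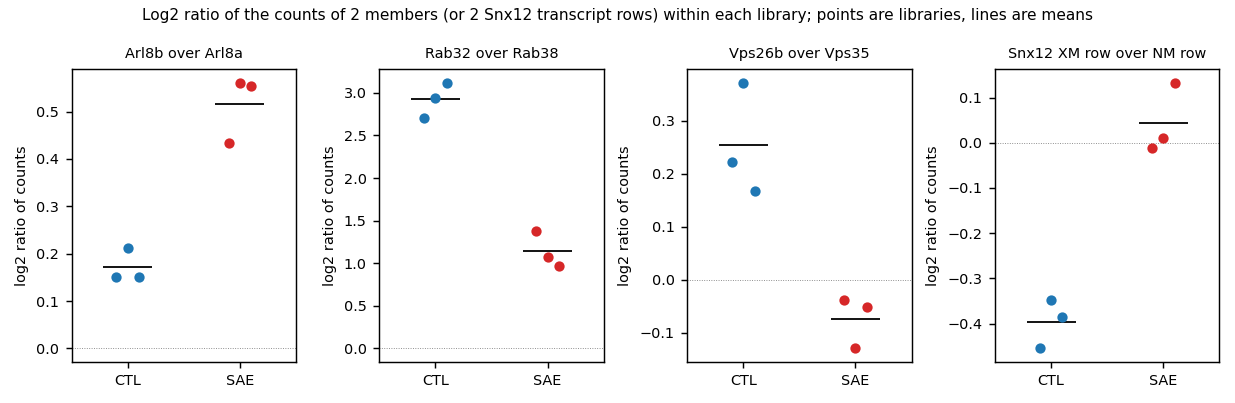
Log2 ratio of counts within each library for 3 gene pairs and for 2 transcripts of Snx12, points for libraries and lines for group means, with a dotted line at equal counts. In each panel the 3 libraries labelled CLP lie apart from the 3 labelled sham. The 4 gene pairs whose groups overlapped are not drawn.

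Genes that work with the members were read from 5 lists. Of 13 tested Arf exchange factors, GTPase-activating proteins and effectors, 3 rose and 0 fell. The exchange factor Arfgef1 rose most surely, with a log2 fold of 0.37 (adjusted p = 6.45e-07), followed by Agap2 at 0.58 and Arfip2 at 0.91. Of 13 tested ESCRT subunits without a Vps name 2 rose and 4 fell, among them the ESCRT-III subunits Chmp4b at -0.35 and Chmp1a at -0.23, and Chmp5 at 0.40. Of 22 tested Rab regulators 2 rose and 4 fell, with the prenylated Rab acceptor Rabac1 at -0.29, the GTPase-activating protein Rabgap1 at -0.85 and the Rab escort protein gene Chml at 0.55.

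Of 15 tested genes of the WASH, Vps34 and associated complexes, 2 rose and 6 fell. Zfyve16, an endosomal FYVE protein, had a log2 fold of 0.63, and the Commander genes Ccdc22 and Commd1 had 0.50 and -1.28, Commd1 on a mean of 4.77 ± 1.30 CPM labelled sham (SD, n = 3) and 1.96 ± 0.53 labelled CLP. Of 15 tested endosomal and Golgi SNAREs 4 rose and 6 fell, with Bet1l at -1.49, Ykt6 at -0.30 and Stx3 at -0.69. Beside the 47.6% of all tested genes, the shares called were 23.1% of the Arf list, 46.2% of the ESCRT list, 27.3% of the Rab regulator list, 53.3% of the WASH and Vps34 list and 66.7% of the SNARE list.

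Markers of several cell types also differed between the groups. Over all tested genes 47.6% were called, 23.7% higher and 23.9% lower. All 6 tested of 10 microglial markers were higher in the libraries labelled CLP, and their summed level was 439 to 570.0 CPM labelled sham and 773 to 836 labelled CLP, with P2ry12 and Gpr34 at 0. Oligodendrocyte markers summed to 892 to 976 against 1334 to 1527 CPM (5 of 6 tested higher), precursor markers to 257 to 371 against 638 to 669 (5 of 5 tested higher), and endothelial markers to 353 to 387 against 488 to 521 (3 of 5 tested higher and 1 lower, Pecam1 at 0). Neutrophil and monocyte markers summed to 46.7 to 60.9 against 2.88 to 3.80 CPM (2 of 2 tested lower), with S100a9, Ly6g, Ccr2, Plac8 and Ly6c2 at 0. Most of that sum labelled sham was S100a8 (mean 35.8 CPM), which is also in the inflammation list. Choroid plexus and ependymal markers summed to 529 to 834 against 709.8 to 1427 CPM (2 of 6 tested higher), which overlap. Red-cell markers summed to 581 to 600.5 against 456 to 563 CPM (2 of 4 tested lower, Alas2 at 0). The part of these cell types in the members' differences was not tested.

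Neuron and astrocyte markers shifted less in sum than microglial and oligodendrocyte markers. Markers of excitatory neurons, the defining cells of hippocampus, summed to 9110 to 9495 CPM labelled sham and 10440.0 to 10633 labelled CLP (3 of 4 tested higher and 1 lower, Camk2a at 0). Inhibitory neuron markers summed to 629.8 to 684 against 693 to 776 (2 of 3 tested higher, Vip at 0). Astrocyte markers summed to 3429 to 3673 against 3533 to 3595, with 2 of 8 tested higher and 5 lower and Slc4a4 at 0. Slc1a3 made up most of this sum (mean 2927 CPM labelled sham and 2558 labelled CLP). Single astrocyte markers moved both ways, such as Gja1 (log2 fold 1.11) and Aqp4 (-1.61). Of those tested 87.5% were called, against 47.6% of all tested genes. The part of neurons and astrocytes in the members' differences was not tested either.

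In the libraries labelled CLP plus extract, 10 of 86 members were called against those labelled CLP (11.6%), where 11.3% of all tested genes were, 7.09% higher and 4.19% lower. Against those labelled sham 8 were called (9.3%), where 10% of all tested genes were, 5.89% higher and 4.16% lower. Both come from an edgeR fit of all 9 libraries. Both comparisons use the extract libraries, so their values are set side by side only. For members not called between labelled CLP and labelled sham, the extract replicates mostly differed by less than counting gives. The test takes the 3 extract libraries as independent replicates, so the p-values of both comparisons may not measure the spread between mice. The small spread does not hold for every called member: Rab11a had 1550.8, 1508.5 and 1829.2 scaled counts in the extract libraries. Rab31, Rab34, Snx4 and Vps51 were higher than in the libraries labelled CLP, and Rab9b, Rab11a, Rab24, Arl10, Vps13b and Vps18 lower. Against the libraries labelled sham, Vps13a, Vps13c, Snx3 and Snx29 were higher and Rab24, Rab31, Rab35 and Arl6ip4 lower. Snx29 had 6.54, 5.91 and 1.90 CPM in the extract libraries, and the last lay within the range labelled sham, 1.24 to 2.08. The 4 higher calls against labelled CLP were 2 without CLP replicate 1, CLP replicate 3 or extract replicate 1, and the 6 lower were 3 without CLP replicate 2. Against labelled sham, the 4 higher were 2 without sham replicate 2, and the 4 lower were 2 without sham replicate 1 and 1 without sham replicate 2.

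The extract group fell at different points between the others for different genes. Rab31 had 373, 355 and 368 CPM labelled CLP plus extract, between the groups, with log2 folds of 0.40 against labelled CLP and -0.31 against labelled sham (adjusted p = 5.25e-05 and 5.30e-04). Vps13c had 147, 129.5 and 143 CPM, near labelled CLP (log2 fold -0.13) and above labelled sham (1.31, adjusted p = 4.42e-06). Snx4 had 171, 168 and 179.9 CPM, near labelled sham (log2 fold -0.03) and above labelled CLP (0.41, adjusted p = 8.41e-04). Rab11a had 326, 317 and 385 CPM, with log2 folds of 0.11 against labelled sham and -0.38 against labelled CLP.

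Rab24, a Rab of autophagosome clearance, was the 1 member called in an extract comparison that lay outside the span of the others. It had 1.48, 2.11 and 1.899 CPM in the libraries labelled CLP plus extract, against 3.04, 4.77 and 4.56 labelled sham and 6.12, 4.69 and 4.32 labelled CLP. Its log2 folds were -1.45 against labelled CLP and -1.17 against labelled sham (adjusted p = 0.00671 and 0.0263), on 7 to 10 counts in the extract libraries. All 3 extract libraries lay below all 6 others. Over the 442 genes of the whole table that were called between labelled CLP and labelled sham, over 2-fold apart and at a mean of at least 50 counts in those 6 libraries, the extract libraries lay between the 2 group means for 96.6% to 97.3% of genes.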

How the data were processed

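RNA of hippocampus was sequenced in 9 libraries, 3 each labelled CTL, SAE and CCLF. The authors deposited a table of whole-number counts for 120312 RefSeq transcripts. Per the submitters' processing notes fastp and Salmon were used. For their versions, transcript index, strand setting and build, the sources used here give nothing. Salmon assigns reads by estimation where transcripts share sequence, and how its estimates became whole numbers is not stated.

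Transcripts were matched by versioned accession to RefSeq symbols (GRCm38.p6), used for names. The 13 not matched are mitochondrially encoded proteins with 0 counts. Counts were summed per symbol and tested with edgeR 4.0.16 in R 4.3.3: TMM scaling, filterByExpr, robust quasi-likelihood fit, Benjamini-Hochberg adjustment over all tested genes, called at adjusted p under 0.05. Labelled CLP against labelled sham used those 6 libraries (8213 genes), and comparisons with CCLF all 9 (8479 genes). CPM is edgeR's, scaled over 9 libraries. The approximate standard error is |log2 fold| over the root of F. Intervals are approximate. The script was tested on simulated data. With 3 against 3 an exact permutation test cannot go below 0.1, so single genes rest on the fit across genes.

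Members and lists were chosen with earlier results of these data known. Named were the called members with the largest log2 folds each way and groups not overlapping (up to 6 each way for Rab, 4 for the other families), the 2 highest in each family, a set fixed by function, and up to 2 of the smallest p per role. Many other members outside this rule, among them Rab4b, Rab29, Rab38, Rab40b and Arl1, were named after their values were seen.

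Same-numbered replicates did not deviate together (correlations from -0.026 to 0.0318). Alternatives were DESeq2 1.42.0 size factors and Wald test, limma-voom (limma 3.58.1), other filters, a replicate block, single-transcript genes, the highest transcript per gene, all 9 libraries, and each replicate left out. Promoter windows came from RefSeq, GRCm38.p6 (68 members matched).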

Additional observations from a re-analysis of the deposited data

How the results depend on the processing

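Over the 53 members named by the rule 710 of 768 alternatives kept direction and side of the threshold, 53 lost the call, 1 gained it and 4 changed sign. Those 4 belong to 2 genes of few counts that no setting called. Members named outside the rule, such as Arl1 and Rab40b, are not in this tally. The log2 fold of Arf1, 0.07 with all libraries, was -0.012 with the highest transcript per gene, -0.03 without sham replicate 1 and -0.23 without CLP replicate 1 (up to 0.22 in others), and that of Vps29, 0.35, ran from -0.011 without CLP replicate 3 to 0.54 without CLP replicate 1. With genes of a single RefSeq transcript alone, which leaves fewer members to test, 14 members were lower, labelled CLP minus labelled sham. The fit of all genes had 17 lower among the 48 single-transcript members and 25 lower among all 86. By family the single-transcript fit had 5 lower Rab, 4 higher Vps, 1 higher and 2 lower Snx and 3 lower Arl. In the comparison of the extract with labelled sham it had 1 higher and 2 lower. The DESeq2 Wald test called 6 lower Rab and 2 lower Snx, and 2 lower for the extract against labelled sham. With no filter 7 lower Rab were called, 10 higher for the extract against labelled CLP and 9 higher against labelled sham. In the fit of all 9 libraries 8 Rab were higher, and with a mean of at least 50 counts 1 Snx was. Leaving out 1 replicate each gave 17 to 20 higher and 17 to 24 lower members, 6 to 10 lower Rab, 2 to 4 lower Vps, 2 to 4 lower Snx and 3 to 5 lower Arl. For the extract the ranges were 2 to 5 higher and 3 to 6 lower against labelled CLP, and 2 to 5 higher and 1 to 4 lower against labelled sham. The cause of these shifts was not tested.

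With the replicate number as a block, 19 members were higher and 25 lower and no named call was lost. Over all genes 3892 were called with the block and 3912 without it. The extract comparisons had 5 higher and 6 lower against labelled CLP and 5 higher and 4 lower against labelled sham. The numbers do not pair the samples. DESeq2 size factors lost no named call, and the median log2 fold of all genes stayed within 0.02 of 0 in all settings. Totals of at most 4895474 counts a library limit members under 200 counts, of which 11 of 31 were called, against 40.3% of all genes at that depth.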
